A study of Mus musculus with 107 samples.

Results

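Neural progenitor cells (NPC) made from mouse embryonic stem cells (ESC) were compared before and after the growth factors that keep them dividing were lowered. The comparison took 8 of the 107 libraries of the series, chosen by their titles. NPC of the third derivation at passage 15 (NPC P15 D3, n = 4) were kept in EGF and FGF at 100 ng/ml. Spontaneously differentiated cells (SPONT, n = 4) had both factors lowered to 1 ng/ml for 4 days, with no other agent added. All cultures came from 1 female ESC line of C57BL/6 background that carries RiboTag, an HA-tagged form of the ribosomal protein Rpl22 switched on in the line by a maternally inherited Sox2-cre. They had been turned into NPC with retinoic acid and purmorphamine, an agonist of the Hedgehog pathway. What was sequenced is therefore polyadenylated RNA pulled down with tagged ribosomes, from frozen pellets of trypsinized cultures. The labels name neither the derivation nor the passage of the SPONT cultures, so treatment and derivation cannot be told apart from these 2 groups alone. For that reason values against NPC of the first derivation at passages 5, 15 and 30 (n = 4 each) and of the second at passage 15 (n = 6) stand beside the main ones. Each of those contrasts reuses the 4 SPONT libraries. In bulk cultures a larger share of cells of a type and more RNA per cell cannot be told apart.

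EGF and FGF bind receptor tyrosine kinases and drive the RAS and ERK cascade, which holds cultured neural progenitors in division. ERK also induces its own brakes, among them Sprouty proteins and dual-specificity phosphatases, together with ETS transcription factors, so the RNA of these genes is a common readout of the pathway. When the factors are withdrawn, progenitors of this kind leave the cell cycle and become astrocytes, oligodendrocytes or neurons, under the influence of Notch, BMP and gp130 signals.

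Total counts per library were 50673074–79578983 in NPC P15 D3 and 62174188–76772832 in SPONT, so a gene at 1 CPM (counts scaled to a library sum of 1e6) rested on at least 50 reads. Counts at this depth include both mates of a pair and PCR copies, and any interval from them would cover counting error only. Libraries of the same group were not equally alike. Over genes with 20 to 2000 counts in a pair of libraries, the mean chi-square per gene was 3.05 for NPC P15 D3 replicates 1 and 2, 4.21 for replicates 3 and 4 and 3.72 for SPONT replicates 3 and 4. The other pairs lay between 6.46 and 22.8, and the widest of all was SPONT replicates 1 and 2. Nothing in the labels says whether the replicates were separate cultures, so p-values measure only the spread between these samples. SPONT libraries gave 17.8–21.1% of their counts to their 50 most abundant genes, against 12.5–14.8% in NPC P15 D3, and 1.57–2.39% to cytosolic ribosomal protein genes, against 3.64–4.88%. The latter share depended on the NPC group. It was 3.01–3.08% in NPC P5, 2.33–2.57% in P15, 2.23–2.42% in P30 and 1.35–1.57% in P15 D2.

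The labelled identity of NPC P15 D3 was checked first, and lineage genes of SPONT are given below. Progenitor markers were present in NPC P15 D3, with *Nes* at 1182 ± 245 CPM and *Sox2* at 226 ± 23.4 CPM (mean ± SD, n = 4 here and throughout). In SPONT *Nes* was lower but *Sox2* higher, as given below, so *Sox2* does not mark NPC P15 D3 alone. The pluripotency genes *Pou5f1*, *Zfp42* and *Dppa4* had at most 3 counts in every library of both groups. They are part of a list of 10 ESC markers, of which 4 had enough counts to be tested. Of these 4, 2 were higher and 1 lower DEGs in SPONT. All 10 summed to 5.69–9.69 CPM in NPC P15 D3 and 5.61–8.95 CPM in SPONT libraries.

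In all, 9203 of the 14877 genes tested (61.9%) were differentially expressed genes (DEGs), with an adjusted p below 0.01. Of these, 4753 (31.9% of genes tested) were higher in SPONT and 4450 (29.9%) lower. Those shares apply to every list count against NPC P15 D3 below that has no share beside it. A log2 fold change (log2FC) of at least 1 in size was reached by 3065 of the higher and 2362 of the lower DEGs, and of at least 3 by 906 and 434. Across all genes tested the median log2FC was 0.02. When each of the closest pairs named above was summed and counted as 1 sample, an alternative added after seeing the data, 6672 genes were DEGs. Leaving out 1 library at a time gave 8428–9721 DEGs. Among the 243 genes named here that were tested, it turned the sign of none that was a DEG in either fit. Signs of genes called in neither fit were not counted. It ended the call of *Boc*, *Cdkn2c*, *Cp*, *Ctsz*, *Id1*, *Lcn2*, *Ncan*, *Pdgfra* or *Pkm* for at least 1 library and brought in *Egfr*, *Fasn*, *Glul* or *Lifr*.

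**Figure D1:**
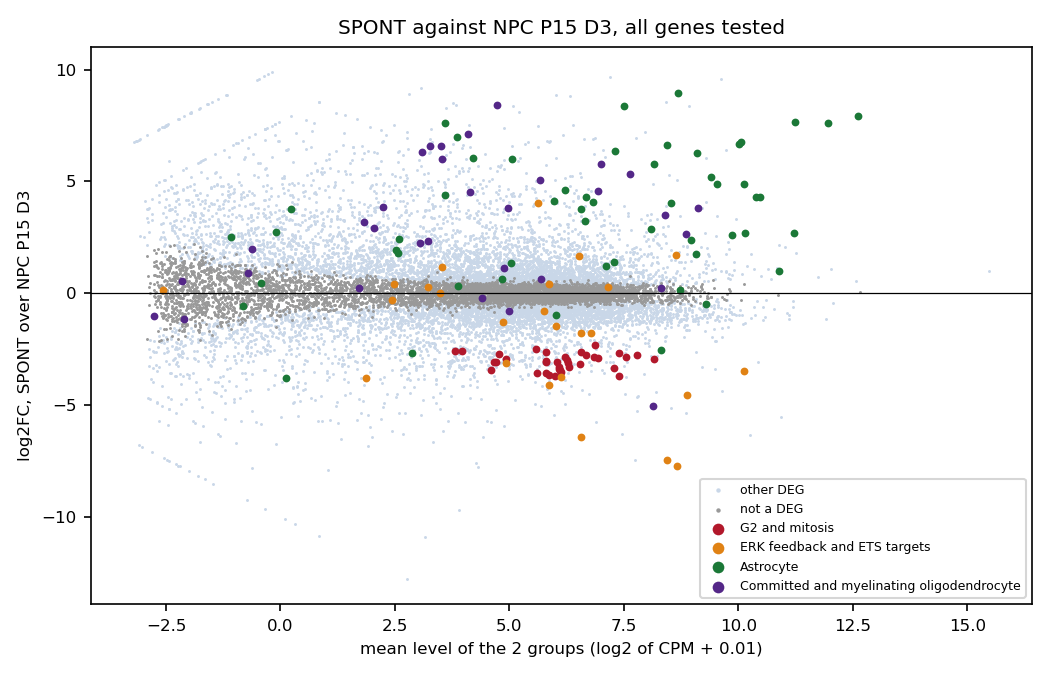
Each point is 1 of the 14877 genes tested, with its mean level in the 8 libraries on the x axis (log2 of CPM + 0.01) and its log2FC, SPONT over NPC P15 D3, on the y axis. Grey points are not DEGs, light points are, and coloured points are members of 4 lists: G2 and mitosis genes all lie below 0, while astrocyte and oligodendrocyte genes lie mostly above it.

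The 10 largest rises among DEGs of at least 10 CPM included genes of oligodendrocytes, astrocytes and Notch signalling. *Gpr17*, a receptor of committed oligodendrocyte precursors, stood at 2.19, 2.76, 2.54 and 1.31 CPM in NPC P15 D3 and 2322, 1684.2, 1219.6 and 1103 CPM in SPONT (log2FC 9.57, SE 0.35, adjusted p = 2.2e-10). No SPONT library came near an NPC library. *Gabbr2*, a subunit of the GABA-B receptor, rose from 0.381 ± 0.104 to 291 ± 85.4 CPM (9.66) and *Pla2g7*, a secreted phospholipase of astrocytes, from 1.74 ± 0.311 to 818 ± 123 CPM (8.94). *Padi2*, which converts arginine to citrulline in proteins including myelin basic protein, rose from 1.93 ± 0.242 to 681 ± 76.9 CPM. *Hes5*, the Notch effector, *Lims2*, *Ripply1*, the manganese exporter gene *Slc30a10* and the sialidase gene *Neu4* were also among them, with log2FC of 8.80, 8.85, 9.18, 8.52 and 8.43. The NPC P15 D3 mean of *Ripply1*, 0.0297 ± 0.0386 CPM, lay under the 0.0495 CPM that 3 counts a library would give. Its log2FC therefore rests on very few NPC reads.

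The 10 largest falls included 2 brakes of ERK signalling, *Dusp6* and *Spry4*, described next. *Agtr2*, a receptor of angiotensin II, stood at 12.0, 13.9, 13.5 and 14.9 CPM in NPC P15 D3 and had no count in any SPONT library. *Qrfpr*, a neuropeptide receptor, stood at 17.9 ± 3.53 CPM in NPC P15 D3, and no SPONT library held more than 3 counts of it, so no fold is given for either. *Apln*, which encodes the peptide apelin, fell from 427 ± 50.4 to 2.34 ± 0.240 CPM (−7.45). *Rab26* fell from 29.8 ± 2.98 to 0.0312 ± 0.0285 CPM. That SPONT mean lay under the 0.0433 CPM that 3 counts a library would give, so its fold of 840.0 rests on very few reads. *Adamts14*, *Ackr4*, *Lamb3* and *Camk1g* fell by 223-fold, 196-fold, 102.02-fold and 87.6-fold.

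Genes that report on EGF and FGF signalling were among the largest falls. *Dusp6*, the phosphatase of ERK (chromosome 10, 99263231–99267489 on GRCm38), stood at 774, 811, 820.4 and 821 CPM in NPC P15 D3 and 3.79, 2.54, 4.39 and 3.97 CPM in SPONT (log2FC −7.71, SE 0.17, adjusted p = 5.8e-12). All 4 SPONT libraries lay more than 100-fold below every NPC P15 D3 library. *Spry4*, a Sprouty inhibitor of receptor tyrosine kinases, stood at 741, 762, 639.6 and 642 CPM in NPC P15 D3 and 2.85, 3.73, 4.48 and 3.79 CPM in SPONT (log2FC −7.49, SE 0.17, adjusted p = 5.8e-12). *Dusp4*, a nuclear MAP kinase phosphatase, fell from 187.5 ± 5.63 to 2.07 ± 0.669 CPM (−6.43). The ETS factors *Etv5* and *Etv4* fell from 908 ± 71.6 to 37.5 ± 7.57 CPM (−4.53) and from 131 ± 13.7 to 9.37 ± 2.12 CPM (−3.74). *Spry1* fell from 111 ± 9.14 to 6.12 ± 1.13 CPM (−4.11), and *Spry2* fell from 173 ± 12.1 to 48.1 ± 9.30 CPM (−1.79). *Ier3*, an immediate-early gene, fell from 54.9 ± 8.05 to 6.01 ± 1.71 CPM.

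Of the 25 genes of this ERK feedback list, all tested, 14 were lower DEGs, 5 higher and 6 neither, with a median log2FC of −1.29 beside 0.02 over all genes. In 13 of them all SPONT libraries lay below all 22 NPC libraries of the 5 groups, a position held by 18.0% of all genes tested. The list did not move as 1. *Fos*, an immediate-early transcription factor that ERK can also induce, stood at 4.59, 4.74, 3.09 and 11.3 CPM in NPC P15 D3 and 109, 76.7, 90.4 and 93.8 CPM in SPONT (log2FC 4.02, SE 0.33, adjusted p = 2.7e-07). All 4 SPONT libraries were higher than every NPC P15 D3 library. Its log2FC against the other NPC groups was 1.68, 3.63, 3.72 and 0.20 for P5, P15, P30 and P15 D2. *Etv1*, an ETS factor, and *Lrig1*, an inhibitor of ERBB receptors, rose from 46.0 ± 4.72 to 137 ± 35.7 CPM (1.64) and from 192.5 ± 10.6 to 599 ± 66.4 CPM (1.70). *Ccnd1*, whose cyclin D1 links ERK to the cell cycle, stood at 2329, 2172, 1896 and 1851 CPM in NPC P15 D3 and 171.1, 150.1, 187.9 and 189 CPM in SPONT (log2FC −3.50, SE 0.11, adjusted p = 8.9e-11).

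The receptors and ligands themselves did not share a direction. *Egfr* stood at 79.8 ± 6.36 CPM in NPC P15 D3 and 92.1 ± 23.3 CPM in SPONT (log2FC 0.27, adjusted p = 0.14) and *Fgfr1* at 301 ± 44.3 CPM in NPC P15 D3 and 246 ± 24.4 CPM in SPONT (log2FC −0.22, adjusted p = 0.091), and neither passed the test. Against NPC P5, P15, P30 and P15 D2 *Egfr* had log2FC of 0.20, −0.87, −0.69 and −0.96, and it was a lower DEG against the last 3. *Fgfr3*, a receptor typical of astrocytes and their precursors, stood at 12.1, 12.3, 8.06 and 8.52 CPM in NPC P15 D3 and 227, 149, 200.5 and 202 CPM in SPONT (log2FC 4.32, SE 0.18, adjusted p = 5.2e-10), and *Fgfr2* rose from 10.7 ± 0.801 to 56.7 ± 5.05 CPM (2.46). Both lay above all 22 NPC libraries. *Tgfa*, a ligand of the EGF receptor, rose from 1.92 ± 0.196 to 41.2 ± 6.62 CPM (4.48), and *Fgfbp3*, which carries FGF out of the matrix, from 5.31 ± 0.290 to 19.5 ± 4.86 CPM. The ligand gene *Fgf1* fell from 109 ± 8.86 to 40.8 ± 7.10 CPM (−1.36). Of the 18 genes tested among 21, 7 were higher (38.9%) and 5 lower (27.8%) DEGs, near the 31.9% and 29.9% over all genes tested, and the median log2FC was 0.27. Against NPC P15 there were 7 higher and 7 lower DEGs of 18 tested, where 29.8% of all genes tested were higher and 27.4% lower DEGs. Against NPC P15 D2 there were 6 higher and 8 lower DEGs of 16, where the shares over all genes were 38.9% and 36.9%.

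**Figure D2:**
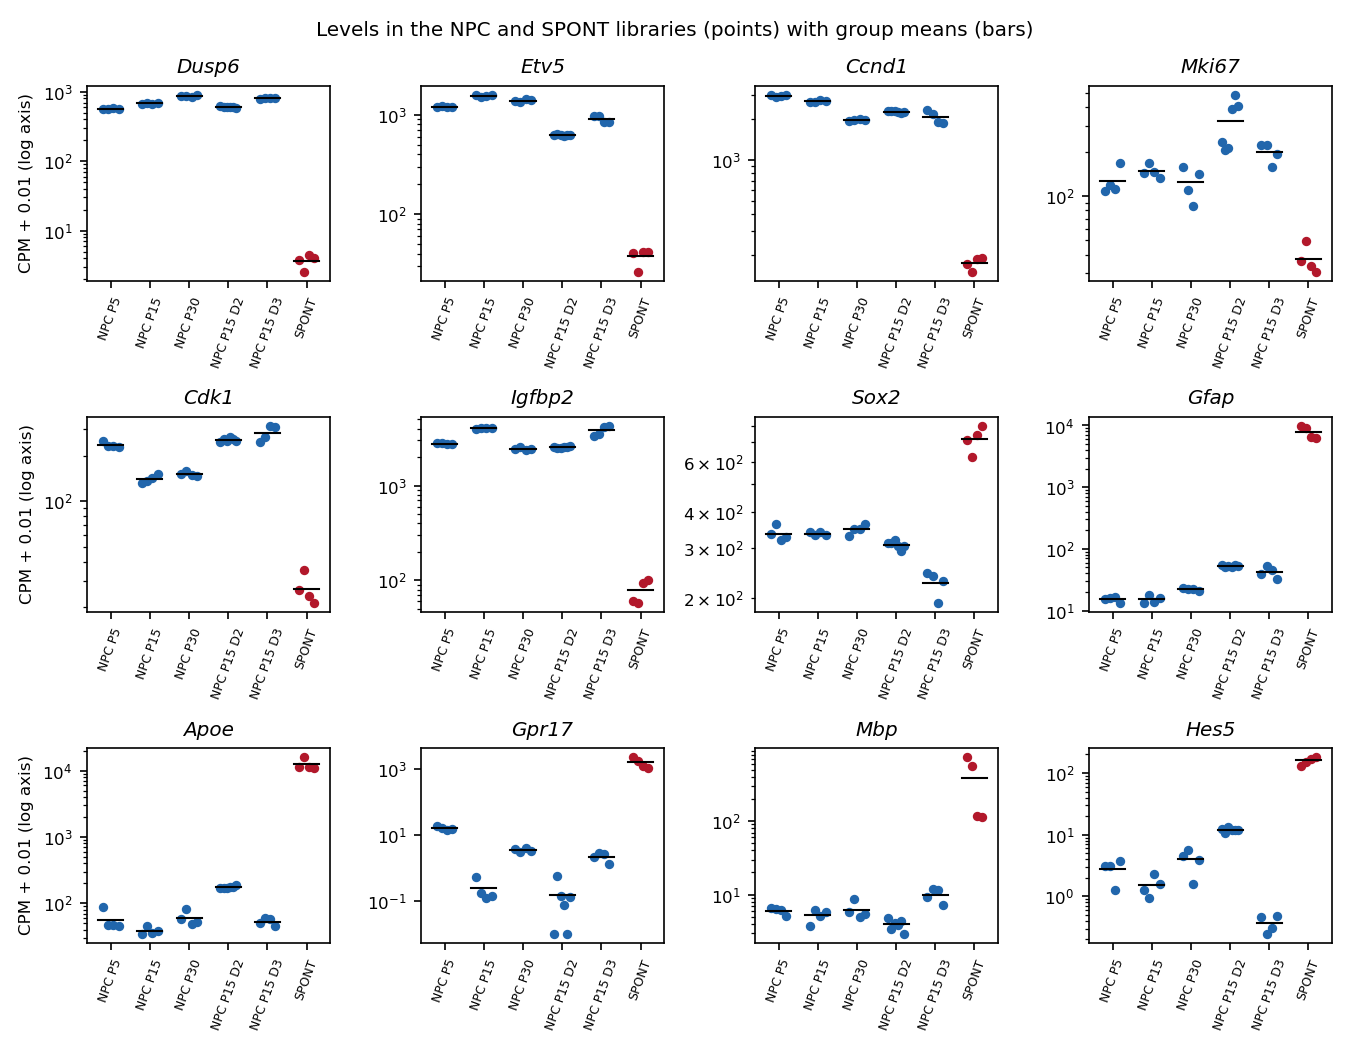
CPM on a log axis for 12 genes in the 22 NPC libraries of 5 groups and the 4 SPONT libraries, 1 point per library and a bar at each group mean, with 0.01 CPM added to every value so that zeros can be drawn. *Dusp6*, *Etv5*, *Ccnd1*, *Mki67*, *Cdk1* and *Igfbp2* sit lowest in SPONT, and *Sox2*, *Gfap*, *Apoe*, *Gpr17*, *Mbp* and *Hes5* highest.

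Genes of the dividing cell fell without exception in both lists. All 33 S phase genes and all 36 G2 and mitosis genes were lower DEGs, with median log2FC of −2.49 and −3.05. In each of these genes all SPONT libraries lay below all 22 NPC libraries. *Mki67*, the antigen Ki-67 of cycling cells, stood at 219.7, 223, 157.7 and 192.4 CPM in NPC P15 D3 and 35.96, 49.2, 33.5 and 30.5 CPM in SPONT (log2FC −2.34, SE 0.17, adjusted p = 7.4e-08). The mitotic kinase gene *Cdk1* stood at 248, 266, 316 and 313 CPM in NPC P15 D3 and 25.8, 35.3, 23.7 and 21.3 CPM in SPONT (log2FC −3.36, SE 0.17, adjusted p = 4.1e-09). RNA of both genes was still read in every SPONT library. *Ccna2*, which encodes cyclin A2, fell from 312 ± 5.81 to 22.99 ± 4.84 CPM (−3.70), *Ccnb1* from 126 ± 9.56 to 11.0 ± 3.88 CPM (−3.46) and *Top2a*, a topoisomerase of dividing cells, from 507 ± 44.4 to 62.0 ± 10.2 CPM (−2.97). *Foxm1*, the transcription factor of mitotic genes, fell from 100.1 ± 14.2 to 11.7 ± 0.859 CPM (−3.03), and *Cenpa*, *Pbk* and *Ect2* had log2FC of −3.66, −3.70 and −3.57.

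In S phase the largest fall was that of *Tk1*, thymidine kinase, which stood at 125, 131, 152 and 164 CPM in NPC P15 D3 and 3.67, 5.23, 4.42 and 4.22 CPM in SPONT (log2FC −4.97, SE 0.16, adjusted p = 7.2e-11). Cyclin E2 (*Ccne2*) and the exonuclease gene *Exo1* fell from 16.3 ± 4.52 to 1.24 ± 0.305 CPM and from 34.5 ± 1.96 to 2.74 ± 0.424 CPM. Among replication licensing genes *Cdc6* fell from 55.7 ± 4.01 to 6.37 ± 0.447 CPM (−3.06), *Mcm5* from 322 ± 4.57 to 48.1 ± 2.99 CPM (−2.68) and *Mcm2* from 250.4 ± 11.4 to 50.7 ± 3.74 CPM (−2.24). *Rrm2*, a subunit of ribonucleotide reductase, fell from 341 ± 6.17 to 39.1 ± 4.43 CPM (−3.06) and *Pcna*, the sliding clamp of DNA polymerase, from 460.1 ± 48.03 to 128.05 ± 3.51 CPM (−1.78).

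The D cyclins, which answer to growth factors, parted. *Ccnd2* stood at 1009, 977, 795 and 858 CPM in NPC P15 D3 and 26.4, 15.2, 18.4 and 24.05 CPM in SPONT (log2FC −5.37, SE 0.18, adjusted p = 1.0e-10). The level of *Ccnd3* instead went from 73.9 ± 4.26 to 96.5 ± 4.81 CPM (log2FC 0.45, adjusted p = 6.7e-04), with log2FC of −0.0033, 0.33, 0.44 and 0.87 against NPC P5, P15, P30 and P15 D2. *Cdk2* fell from 103 ± 4.41 to 20.7 ± 1.36 CPM (−2.25). *Cdk4*, the partner kinase of D cyclins, fell from 905 ± 94.6 to 604 ± 40.6 CPM (−0.52) against D3 and had log2FC of −0.31, 0.37, 0.13 and 0.40 against the other groups in the same order. Of 18 inhibitors and pocket proteins, 9 were higher (50%) and 4 lower (22.2%) DEGs, beside 31.9% and 29.9% over all genes tested (median log2FC 0.60). Against NPC P15 there were 7 higher and 5 lower DEGs of 18, where those shares were 29.8% and 27.4%. Against P15 D2 there were 8 higher and 4 lower DEGs of 18, where they were 38.9% and 36.9%. Medians against NPC P5, P15, P30 and P15 D2 were 0.89, 0.23, 0.33 and 0.23. The largest rise was that of *Cdkn1c*, the inhibitor p57, which stood at 2.78, 3.04, 3.19 and 2.99 CPM in NPC P15 D3 and 74.1, 69.7, 58.0 and 56.6 CPM in SPONT (log2FC 4.49, SE 0.14, adjusted p = 6.6e-11). *Gadd45b*, *Gadd45g* and the antiproliferative gene *Btg2* rose from 2.44 ± 0.115 to 38.05 ± 5.95 CPM, from 33.9 ± 2.82 to 349.6 ± 101.7 CPM and from 38.99 ± 6.44 to 224 ± 47.7 CPM, and *Cdkn1b*, the inhibitor p27, from 64.9 ± 3.88 to 102.1 ± 16.1 CPM. *Cdkn1a*, the inhibitor p21, went the other way, from 380.2 ± 35.9 to 169 ± 11.6 CPM (−1.10), and so did *Gas1* (−2.60), the pocket protein gene *Rbl1* (−2.07) and *Cdkn2c* (−0.46). Against NPC P5, P15, P30 and P15 D2 *Cdkn1a* had log2FC of −0.76, −1.44, 0.43 and −1.08.

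Since the division genes fell together, the bases before their starts are shown for 5 of them: *Cdk1* and *Top2a*, described above, *Kif11*, a mitotic kinesin, *Prc1*, which acts in cytokinesis, and *Mcm6*, a subunit of the replicative helicase, the last 3 chosen for this display. Mitotic promoters are known to combine a CHR element with CCAAT boxes, and S phase promoters to carry E2F sites. The stretches below are the last 120 bases before a RefSeq start of each gene on GRCm38.p6, written along the strand of the gene. Capitals mark CHR elements (TTTGAA) and CCAAT boxes (CCAAT) on either strand in the first 4 genes, and E2F sites (TTTCCCGC or TTTGGCGC) in *Mcm6*. *Prc1* has another start in the table, slightly upstream, and the 120 bases before that one hold the same CCAAT box but no whole CHR element. The stretch with both is shown.
Cdk1, chr10:69352913-69353032, minus strand: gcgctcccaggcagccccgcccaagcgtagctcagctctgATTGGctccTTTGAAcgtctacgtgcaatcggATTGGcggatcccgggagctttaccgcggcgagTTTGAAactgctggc
Top2a, chr11:99024190-99024309, minus strand: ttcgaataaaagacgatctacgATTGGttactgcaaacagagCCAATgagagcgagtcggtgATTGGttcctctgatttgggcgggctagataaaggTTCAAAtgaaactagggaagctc
Kif11, chr19:37376262-37376381, plus strand: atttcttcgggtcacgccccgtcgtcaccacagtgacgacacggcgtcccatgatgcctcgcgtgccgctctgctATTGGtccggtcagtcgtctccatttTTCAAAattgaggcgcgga
Prc1, chr7:80294356-80294475, plus strand: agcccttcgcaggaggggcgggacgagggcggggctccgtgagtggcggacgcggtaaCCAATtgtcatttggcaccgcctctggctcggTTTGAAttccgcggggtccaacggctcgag
Mcm6, chr1:128359706-128359825, minus strand: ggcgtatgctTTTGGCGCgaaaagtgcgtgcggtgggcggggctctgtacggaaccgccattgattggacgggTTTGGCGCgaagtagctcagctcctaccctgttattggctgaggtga

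These letters were counted in the 250 bases before each start, for the 29 G2 and mitosis genes with a window in the table, which have 31 windows. A CCAAT box was found in 26 windows (83.9%), against 33.8% of all 32851 windows. In sterol synthesis genes 16 of 20 windows (80.0%) held one too. A CHR element was found in 12 G2 and mitosis windows (38.7%), against 16.0% of all. Both stood together in 12 windows, against 5.55% of all. Of the 29 windows of 25 S phase genes, 20 (69.0%) held a CCAAT box and 5 (17.2%) an E2F site, against 1.30% of all windows for the latter. When the 50 bases after the start were searched as well, CHR elements were found in 24 of the 31 G2 and mitosis windows (77.4%), against 17.9% of all. A match is a string of letters, not a bound site, and the letters TTTGAA and CCAAT can share a base.

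Genes known for neural progenitors did not fall as a class. Of 27 tested among 31, 16 were higher (59.3%) and 6 lower (22.2%) DEGs, with a median log2FC of 0.82. The shares over all genes tested were 31.9% and 29.9%. The balance of the list depended on the reference. Against NPC P15 there were 10 higher and 11 lower DEGs of 27 tested, where the shares over all genes were 29.8% and 27.4%. Against P15 D2 there were 12 higher and 10 lower DEGs of 26, where those shares were 38.9% and 36.9%. Medians were 0.41, −0.28, −0.12 and 0.08 against NPC P5, P15, P30 and P15 D2. *Igfbp2*, a secreted binding protein of insulin-like growth factors, stood at 3360.5, 3524, 4152 and 4278 CPM in NPC P15 D3 and 61.1, 57.9, 93.1 and 101.3 CPM in SPONT (log2FC −5.55, SE 0.21, adjusted p = 2.5e-10). *Hmga2*, a chromatin protein of early progenitors, fell from 8.94 ± 1.10 to 0.171 ± 0.0859 CPM (−5.62), the matrix glycoprotein gene *Tnc* from 565 ± 155 to 25.3 ± 4.04 CPM (−4.42) and *Nes*, the intermediate filament nestin, from 1182 ± 245 to 255 ± 59.4 CPM (−2.15). *Sox11* fell from 213 ± 51.1 to 60.7 ± 7.35 CPM (−1.75). These lay below all 22 NPC libraries.

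The transcription factors *Sox2* and *Sox9*, shared by progenitors and glia, rose instead. *Sox2* stood at 244, 239, 192.5 and 229.9 CPM in NPC P15 D3 and 712, 624, 745 and 799.9 CPM in SPONT (log2FC 1.73, SE 0.10, adjusted p = 1.2e-08), above all 22 NPC libraries. *Sox9* rose from 169.9 ± 25.7 to 429 ± 23.4 CPM (1.40), and had log2FC of 0.57, 0.28, 0.12 and 0.90 against NPC P5, P15, P30 and P15 D2. *Pax6*, *Fabp7*, *Hopx* and *Sox4* had log2FC of 0.62, 0.85, 2.47 and 2.12. *Dbx2* rose by 2.63 against D3 but had values of 0.71, −0.42, 0.88 and −0.18 against the other groups in the same order. *Olig2*, a factor of ventral progenitors and oligodendrocytes, was at 885 ± 95.1 CPM in NPC P15 D3 and 911 ± 99.8 CPM in SPONT (log2FC 0.11, adjusted p = 0.38).

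**Figure D3:**
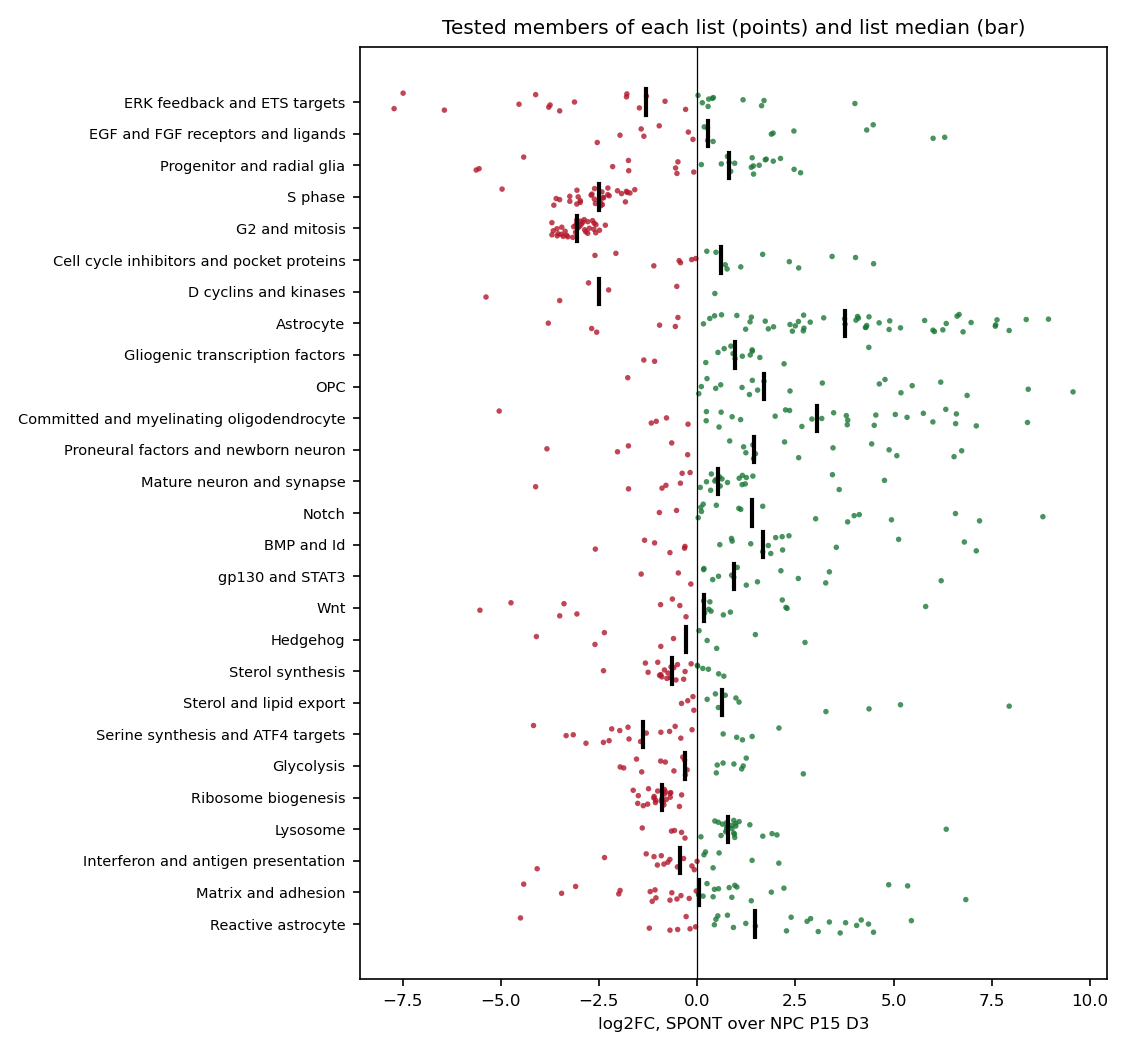
Each point is the log2FC, SPONT over NPC P15 D3, of 1 tested gene of a list, and each black bar is the median of the list. S phase and G2 and mitosis genes lie wholly below 0, at medians of −2.49 and −3.05, and astrocyte and committed oligodendrocyte genes have the highest medians of the lists drawn, 3.76 and 3.05.

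Astrocyte genes rose almost throughout. All 54 members were tested, and 45 were higher DEGs, 4 lower and 5 neither, with a median log2FC of 3.76. In 39 of them all SPONT libraries lay above all 22 NPC libraries, a position held by 16.9% of all genes tested. *Gfap*, the intermediate filament of astrocytes (chromosome 11, 102887336–102897200 on GRCm38), stood at 39.5, 53.1, 45.7 and 31.9 CPM in NPC P15 D3 and 9858, 8983, 6401 and 6279 CPM in SPONT (log2FC 7.60, SE 0.24, adjusted p = 7.9e-11). *Apoe*, the lipid carrier that astrocytes secrete, stood at 50.8, 59.5, 57.2 and 44.6 CPM in NPC P15 D3 and 11346, 16179, 11249.8 and 11014 CPM in SPONT (log2FC 7.94, SE 0.20, adjusted p = 1.6e-11). Each rose more than 100-fold in every library. *Clu*, which encodes clusterin, rose from 38.1 ± 2.01 to 1314 ± 225 CPM (5.18), and *Gpr37l1* and *Ntsr2*, receptors of astrocytes, rose from 4.04 ± 0.444 to 313 ± 48.4 CPM (6.34) and from 1.16 ± 0.498 to 359.7 ± 48.4 CPM (8.38).

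Genes of mature astrocyte function also rose, from low levels. *Aqp4*, the water channel of astrocyte endfeet, stood at 0.639, 1.62, 1.21 and 0.867 CPM in NPC P15 D3 and 99.3, 54.0, 54.7 and 55.3 CPM in SPONT (log2FC 6.00, SE 0.30, adjusted p = 3.1e-09). *S100b* rose from 7.25 ± 1.41 to 119.1 ± 43.8 CPM (4.11), *Slc1a2*, a glutamate transporter, from 20.2 ± 1.23 to 180.1 ± 31.2 CPM (3.22) and *Aldh1l1*, a folate enzyme, from 1.97 ± 0.145 to 10.1 ± 1.67 CPM (2.42). *Aldoc*, an aldolase of astrocytes, and *Gja1*, connexin 43, were already abundant and rose from 657 ± 29.4 to 4093 ± 249 CPM (2.70) and from 168.3 ± 1.64 to 831 ± 188.2 CPM (2.36). *Glul*, glutamine synthetase, was at 411 ± 23.1 CPM in NPC P15 D3 and 441 ± 76.9 CPM in SPONT (log2FC 0.16, adjusted p = 0.23). *Acsbg1*, an acyl-CoA synthetase listed as an astrocyte gene, fell from 548 ± 14.2 to 89.1 ± 9.27 CPM (−2.56), and so did *Chrdl1*, a BMP binding protein (−2.69), and *Gabrg1*, a GABA-A receptor subunit (−0.96).

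Factors that open the glial programme rose against D3 with smaller folds. Of 15, 12 were higher (80%) and 2 lower (13.3%) DEGs, beside 31.9% and 29.9% over all genes tested (median log2FC 0.97). *Nfia* rose from 155 ± 33.01 to 290.2 ± 40.4 CPM (0.97) and *Nfib* from 153 ± 20.3 to 443 ± 49.7 CPM (1.60), and *Sox8* and *Nr2f1* had log2FC of 1.40 and 1.35. *Nfia* depended on the NPC group, with −0.29, −0.08, 0.05 and 0.35 against NPC P5, P15, P30 and P15 D2. The list median was 0.16–0.34 with those references. In the same order 7, 8, 5 and 7 of the 15 were higher and 0, 1, 2 and 3 lower DEGs. Over all genes tested the shares were 29.8% and 27.4% against P15 and 38.9% and 36.9% against P15 D2. *Zbtb20*, a zinc finger factor known from astrocyte development, stood at 1.99, 2.07, 1.44 and 1.08 CPM in NPC P15 D3 and 23.3, 42.7, 31.4 and 30.99 CPM in SPONT (log2FC 4.37, SE 0.25, adjusted p = 9.5e-09), above all 22 NPC libraries. *Id3* and *Lhx2* fell by 2.12-fold and 2.56-fold.

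Oligodendrocyte precursor (OPC) genes rose in part. Of 21, 17 were higher DEGs (81.0%) and 1 lower (4.8%), beside 31.9% and 29.9% over all genes tested. The median log2FC was 1.70, and the lower DEG was *Xylt1*, a xylosyltransferase of proteoglycans (−1.77). *Sox10*, the factor of the oligodendrocyte lineage, stood at 0.794, 0.908, 0.442 and 0.402 CPM in NPC P15 D3 and 64.6, 53.5, 30.01 and 26.3 CPM in SPONT (log2FC 6.20, SE 0.37, adjusted p = 1.5e-08). *Tnr*, a matrix protein, and *C1ql1* rose from 2.03 ± 0.467 to 53.02 ± 21.7 CPM (4.78) and from 1.77 ± 0.252 to 197 ± 51.9 CPM (6.87). Genes that mark cycling precursors had smaller values. *Pdgfra*, the receptor that drives their division, rose from 114 ± 9.40 to 166 ± 41.4 CPM (log2FC 0.60, adjusted p = 0.0034) and *Cspg4* from 84.3 ± 11.5 to 202 ± 11.8 CPM (1.33), while *Vcan* was at 195 ± 16.1 CPM in NPC P15 D3 and 222 ± 47.8 CPM in SPONT (log2FC 0.25, adjusted p = 0.099). Against NPC P5, P15, P30 and P15 D2 *Pdgfra* had log2FC of 0.54, 1.57, −0.50 and 2.57 and *Vcan* −0.02, −0.73, −0.80 and −1.16, and *Vcan* was a lower DEG against the last 3. *Olig1* rose from 1175 ± 79.3 to 2479 ± 319 CPM (1.14) against D3, with −0.32, −1.06, −0.25 and 0.49 against NPC P5, P15, P30 and P15 D2.

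Genes of committed and myelinating oligodendrocytes rose by unequal folds among the SPONT replicates. Of 32, 22 were higher and 2 lower DEGs (median log2FC 3.05). *Mbp*, myelin basic protein, stood at 9.20, 12.0, 11.5 and 7.24 CPM in NPC P15 D3 and 749, 567, 116 and 114 CPM in SPONT (log2FC 5.34, SE 0.62, adjusted p = 6.8e-06). Every SPONT library lay above every NPC library, but replicates 1 and 2 held several times the level of replicates 3 and 4. *Myrf*, the regulator of myelin genes, stood at 5.09, 5.60, 3.62 and 3.41 CPM in NPC P15 D3 and 117, 63.3, 28.95 and 24.9 CPM in SPONT (log2FC 3.80, SE 0.45, adjusted p = 8.3e-06). *Opalin* was at 27.3, 32.3, 7.97 and 8.01 CPM in the SPONT replicates, *Bmp4* at 50.3, 56.1, 15.7 and 13.3 CPM, *Fa2h*, a hydroxylase of myelin lipids, at 83.5, 65.4, 34.5 and 28.4 CPM and *Mag* at 13.2, 11.0, 2.23 and 2.31 CPM. *Bcas1*, which marks oligodendrocytes at the start of myelination, was closer to even, at 957, 1102, 573 and 556 CPM.

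Of the 22 higher DEGs of this list, replicates 1 and 2 both exceeded replicates 3 and 4 in 16. The same held for 13 of the 45 higher astrocyte genes and 6 of the 17 higher OPC genes. Its share over all higher DEGs was not counted, and replicates 3 and 4 were the closest SPONT pair. Summed over the list, SPONT libraries ranged from 3022 to 5805 CPM and NPC P15 D3 libraries from 1207 to 1390 CPM. With SPONT replicates 3 and 4 alone, an alternative added after seeing the data, the median log2FC of the list was 2.52, and 21 genes were higher DEGs. *Trf*, transferrin, and *Mbnl2* were the 2 lower DEGs. *Trf*, expressed in oligodendrocytes in the adult brain, stood at 449.7, 441, 629.6 and 677 CPM in NPC P15 D3 and 15.6, 18.4, 15.8 and 14.1 CPM in SPONT (log2FC −5.04, SE 0.18, adjusted p = 2.2e-10), a fall in all 4 libraries.

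**Figure D4:**
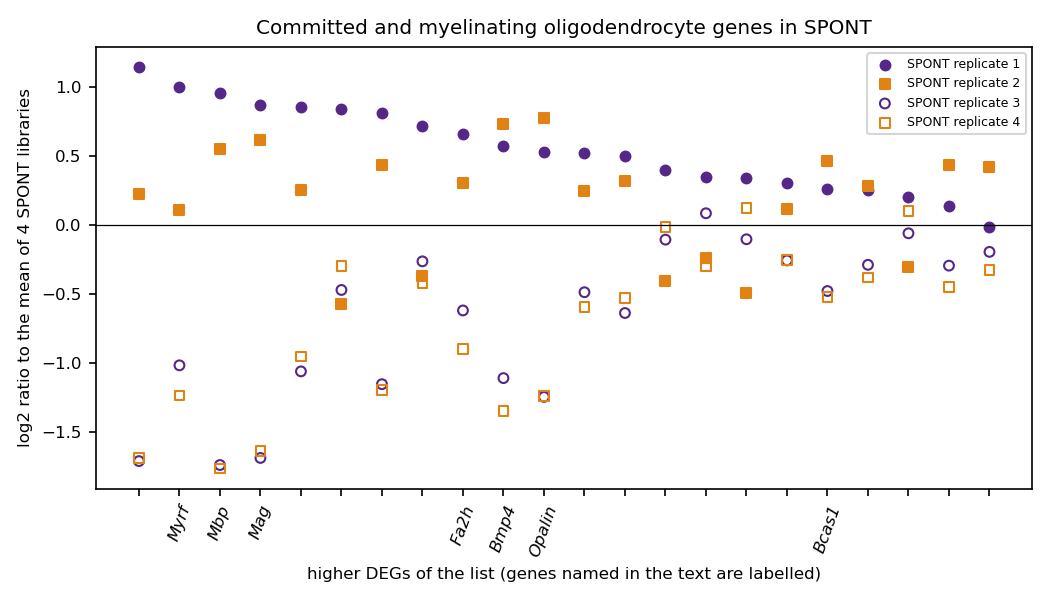
For each of the 22 higher DEGs among committed and myelinating oligodendrocyte genes, the points give the log2 ratio of the CPM in each of the 4 SPONT libraries to the mean of the 4. Replicates 1 and 2 (filled) lie above replicates 3 and 4 (open) in 16 of the 22 genes, of which those named in the text are labelled.

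Neuronal genes were mixed. Of 19 genes of proneural factors and newborn neurons that were tested, among 29, 14 were higher and 4 lower DEGs (median log2FC 1.44). *Dcx*, doublecortin of migrating neurons, stood at 0.483, 0.375, 0.426 and 0.302 CPM in NPC P15 D3 and 48.2, 35.4, 28.3 and 28.4 CPM in SPONT (log2FC 6.54, SE 0.24, adjusted p = 2.4e-10). *Elavl3*, an RNA-binding protein of neurons, rose from 1.48 ± 0.228 to 47.5 ± 18.6 CPM (5.08), *Myt1* from 0.818 ± 0.144 to 23.5 ± 4.03 CPM (4.89) and *Mfng*, a modifier of Notch, from 0.192 ± 0.140 to 18.8 ± 2.28 CPM (6.73). *Dcx* and *Myt1* are known from oligodendrocyte precursors too. *Tubb3*, neuronal beta-tubulin, rose from 47.1 ± 7.46 to 79.8 ± 6.83 CPM (0.83). The proneural gene *Neurog2* had at most 3 counts in every library, and *Dlx1* and *Dlx2*, of GABAergic neuron precursors, stayed under 1 CPM on average in both groups. *Insm1*, of newborn neuronal progenitors, fell from 17.2 ± 2.61 to 4.03 ± 1.00 CPM (−2.03), and *Stmn1* fell (−0.65).

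Of 26 tested genes of mature neurons and synapses, among 29, 7 were higher (26.9%) and 3 lower (11.5%) DEGs, and 16 passed in neither direction (median log2FC 0.52). Both shares lay below the 31.9% and 29.9% over all genes tested. *Rbfox3*, the nuclear antigen NeuN, rose from 0.906 ± 0.392 to 23.3 ± 1.77 CPM (4.77), and *Syn2* and *Syn1*, synapsins, rose from 16.6 ± 0.969 to 173 ± 18.9 CPM and from 17.9 ± 3.09 to 37.96 ± 1.37 CPM. *Snap25* was at 0.983 ± 0.468 CPM in NPC P15 D3 and 1.37 ± 1.15 CPM in SPONT (log2FC 0.57, adjusted p = 0.35), *Syt1* at 6.01 ± 1.81 CPM in NPC P15 D3 and 4.39 ± 0.846 CPM in SPONT (log2FC −0.38, adjusted p = 0.13) and *Gad1* at 0.921 ± 0.292 CPM in NPC P15 D3 and 0.507 ± 0.115 CPM in SPONT (log2FC −0.79, adjusted p = 0.032). *Map2* was at 711 ± 65.5 CPM in NPC P15 D3 and 507 ± 112 CPM in SPONT (log2FC −0.43, adjusted p = 0.017). *Camk2b* fell from 175.1 ± 11.7 to 49.9 ± 3.71 CPM (−1.75).

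Signals that steer fate were read next, beginning with Notch. Notch ligands of the Delta class on 1 cell activate receptors on its neighbour, where Hes and Hey repressors are induced. *Dll1*, a ligand gene of this class, rose from 10.8 ± 1.90 to 147 ± 44.7 CPM (3.83). *Dll3*, a divergent Delta-like gene whose protein does not activate receptors on a neighbour, stood at 3.16, 4.12, 3.57 and 3.36 CPM in NPC P15 D3 and 445, 432, 577 and 527 CPM in SPONT (log2FC 7.19, SE 0.15, adjusted p = 5.1e-12). *Jag1*, a ligand of the other class, fell from 33.97 ± 3.32 to 16.7 ± 4.28 CPM (−0.96). The receptor *Notch1* rose from 113 ± 19.3 to 234 ± 51.9 CPM (1.11) against D3, with −0.06, −0.80, −0.38 and −0.81 against NPC P5, P15, P30 and P15 D2. Of the targets, *Hes5* stood at 0.449, 0.237, 0.295 and 0.478 CPM in NPC P15 D3 and 132, 154, 171.2 and 183.001 CPM in SPONT (log2FC 8.80, SE 0.21, adjusted p = 8.6e-12). *Hey1* and *Hey2* rose from 4.69 ± 1.498 to 72.0 ± 10.2 CPM (4.00) and from 0.721 ± 0.0850 to 12.1 ± 3.22 CPM (4.13), while *Hes1* was at 30.01 ± 3.35 CPM in NPC P15 D3 and 29.2 ± 5.64 CPM in SPONT (log2FC 0.03, adjusted p = 0.89). Against NPC P5, P15, P30 and P15 D2 *Hes1* had log2FC of −0.51, −1.33, −0.81 and −1.28, a lower DEG against the last 3. In the whole list of 18, 11 were higher and 2 lower DEGs, *Jag1* and the glycosyltransferase gene *Lfng* (−0.52), with a median log2FC of 1.39. These were 61.1% and 11.1%, beside 31.9% and 29.9% over all genes tested.

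Of 21 tested BMP and Id genes, among 22, 15 were higher and 4 lower DEGs (median log2FC 1.67). *Id4* stood at 0.984, 1.20, 0.999 and 1.17 CPM in NPC P15 D3 and 126, 110.3, 111 and 118 CPM in SPONT (log2FC 6.80, SE 0.12, adjusted p = 2.8e-12), above all 22 NPC libraries. Other Id genes, inhibitors of proneural factors that BMP induces, differed, with *Id2* rising from 97.9 ± 9.28 to 241 ± 18.8 CPM (1.36), *Id1* from 97.6 ± 5.49 to 139 ± 36.8 CPM (0.58) and *Id3* falling from 277 ± 37.2 to 125 ± 23.5 CPM (−1.08). Among ligands *Bmp4* rose from 0.259 ± 0.136 to 33.9 ± 22.5 CPM (7.11) and *Bmp7* fell from 35.5 ± 2.48 to 5.64 ± 1.14 CPM (−2.59). The receptor gene *Bmpr1b* rose from 4.38 ± 0.948 to 48.7 ± 13.998 CPM (3.54), the BMP antagonist *Nog* from 0.391 ± 0.0741 to 13.2 ± 1.13 CPM (5.13) and the target *Atoh8* from 7.04 ± 0.972 to 24.6 ± 1.91 CPM (1.87). *Bambi*, a decoy receptor, fell (−0.69).

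The gp130 pathway carries CNTF, LIF and related cytokines to STAT3 and promotes astrocyte genes. Of 17 tested members among 19, 10 were higher DEGs and 1 lower (median log2FC 0.93). Against NPC P15 the list had 6 higher and 2 lower DEGs of 17 tested, where the shares over all genes were 29.8% and 27.4%. Against P15 D2 it had 9 higher and 6 lower DEGs of 17, where those shares were 38.9% and 36.9%. Its medians were 0.41, 0.26, 0.15 and 0.35 against NPC P5, P15, P30 and P15 D2. The receptor subunits *Cntfr* and *Il6st* rose from 27.1 ± 2.28 to 75.0 ± 15.0 CPM (1.54) and from 99.8 ± 3.60 to 182 ± 39.1 CPM (0.93), and *Lifr* was at 44.7 ± 6.20 CPM in NPC P15 D3 and 30.7 ± 6.91 CPM in SPONT (log2FC −0.48, adjusted p = 0.014). *Stat3* rose from 116 ± 10.7 to 225 ± 24.96 CPM (1.02) and *Jak2* from 30.7 ± 3.23 to 54.0 ± 10.5 CPM (0.88), but *Stat3* had log2FC of 0.41, 0.70, 0.05 and −0.29 against NPC P5, P15, P30 and P15 D2. *Socs3*, the feedback inhibitor that STAT3 induces, was at 5.93 ± 1.42 CPM in NPC P15 D3 and 6.34 ± 0.480 CPM in SPONT (log2FC 0.17, adjusted p = 0.4).

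Of 20 tested Wnt genes among 21, 7 were higher and 7 lower DEGs, 35% each way and near the shares over all genes tested (median log2FC 0.18). Against NPC P15 there were 6 higher and 10 lower DEGs of 20, and the medians against NPC P5, P15, P30 and P15 D2 were 0.05, −0.55, −0.19 and −0.18. *Tcf7* and *Lef1*, the transcription factors that act with beta-catenin, fell from 40.01 ± 4.57 to 1.43 ± 0.291 CPM (−4.74) and from 1.97 ± 0.285 to 0.0377 ± 0.0299 CPM (−5.53), and the receptor gene *Fzd1* from 265 ± 19.7 to 30.4 ± 4.11 CPM (−3.06). *Wnt7b* and the feedback genes *Nkd1* and *Nkd2* rose by 4.49-fold, 4.89-fold and 4.79-fold. *Axin2*, the usual reporter of Wnt signalling, was at 44.8 ± 4.77 CPM in NPC P15 D3 and 35.3 ± 8.997 CPM in SPONT (log2FC −0.28, adjusted p = 0.13). Among 10 tested Hedgehog genes of 11, 3 were higher (30%) and 5 lower (50%) DEGs, beside 31.9% and 29.9% over all genes tested. *Hhip*, a Hedgehog-binding inhibitor, fell from 33.4 ± 6.24 to 1.86 ± 0.922 CPM (−4.09). *Ptch1*, the receptor and target, stood at 30.2, 26.6, 25.2 and 24.9 CPM in NPC P15 D3 and 92.0, 23.5, 84.8 and 87.2 CPM in SPONT (log2FC 1.48, SE 0.31, adjusted p = 9.0e-04). SPONT replicate 2 lay below every NPC P15 D3 library and the other 3 above all of them. *Gli1* rose from 0.115 ± 0.0200 to 0.755 ± 0.376 CPM (2.75) and stayed under 1 CPM, *Boc* rose by 0.50 and *Cdon* fell by 1.90-fold.

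Metabolic genes moved by pathway. Of 22 genes of serine synthesis and targets of the stress factor ATF4, 13 were lower and 5 higher DEGs (median log2FC −1.37). *Trib3*, a pseudokinase, stood at 36.4, 42.7, 22.9 and 16.9 CPM in NPC P15 D3 and 0.638, 4.37, 0.693 and 0.636 CPM in SPONT (log2FC −4.17, SE 0.61, adjusted p = 5.4e-05). *Asns*, asparagine synthetase, stood at 488, 538, 427 and 346 CPM in NPC P15 D3 and 68.9, 122, 70.5 and 65.5 CPM in SPONT (log2FC −2.39, SE 0.22, adjusted p = 7.4e-07), and *Mthfd2*, of the mitochondrial folate cycle, at 298, 329, 244 and 215 CPM in NPC P15 D3 and 18.99, 46.5, 19.1 and 17.5 CPM in SPONT (log2FC −3.34, SE 0.31, adjusted p = 1.0e-06). In these 3 genes SPONT replicate 2 was the highest of its group, and still below every NPC P15 D3 library. *Aldh1l2* fell from 136 ± 19.3 to 18.3 ± 3.79 CPM (−2.83), *Psat1* from 919.6 ± 85.8 to 359.6 ± 41.6 CPM (−1.29) and *Chac1* from 23.5 ± 10.2 to 6.68 ± 4.07 CPM (−1.73). *Phgdh*, the first enzyme of serine synthesis, went up instead, from 703 ± 35.2 to 1063 ± 73.1 CPM (0.66), as did *Slc7a11*, the cystine transporter (2.08), *Gpt2* (1.40) and *Cebpb* (1.15).

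All 24 genes of ribosome biogenesis were lower DEGs (median log2FC −0.91). *Npm1*, nucleophosmin, fell from 1306 ± 109 to 441 ± 61.1 CPM (−1.50), *Ncl*, nucleolin, from 1243 ± 147 to 629 ± 41.2 CPM (−0.91), *Gnl3* from 131 ± 18.4 to 44.03 ± 5.13 CPM (−1.51), *Utp20* from 84.6 ± 15.5 to 26.1 ± 1.33 CPM (−1.63), *Dkc1* from 174 ± 2.82 to 64.4 ± 3.59 CPM (−1.37), and *Fbl* and *Nop56* by 1.80-fold and 1.61-fold. Of 29 lysosomal genes, 22 were higher (75.9%) and 4 lower (13.8%) DEGs, beside 31.9% and 29.9% over all genes tested (median log2FC 0.78). The proteases *Ctsb*, *Ctsf* and *Ctsd* rose from 260.4 ± 16.7 to 1017 ± 118.7 CPM (2.03), from 23.6 ± 1.36 to 84.5 ± 3.88 CPM (1.91) and from 422 ± 15.9 to 778 ± 61.6 CPM (0.95), and the membrane proteins *Lamp1* and *Cd63* from 585 ± 26.3 to 1106 ± 60.4 CPM and from 328 ± 46.4 to 996 ± 234 CPM. *Glb1*, *Gla* and *Ctsz* fell by 1.49-fold, 1.57-fold and 1.32-fold. *Gpr37l1*, listed here because prosaposin is a proposed ligand of it, is the astrocyte gene given above.

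Of 24 tested genes of sterol synthesis among 25, 16 were lower (66.7%) and 2 higher (8.3%) DEGs against D3 (median log2FC −0.63). Over all genes tested 29.9% were lower and 31.9% higher DEGs. *Idi1*, an isomerase of the pathway, fell from 33.3 ± 7.58 to 13.5 ± 4.04 CPM (−1.25), *Sqle* from 298 ± 6.53 to 202 ± 18.1 CPM (−0.50), *Tm7sf2* by 2.003-fold and *Stard4* by 2.49-fold. *Hmgcs1* and *Fdft1* rose from 504 ± 14.6 to 707 ± 117 CPM (0.55) and from 154 ± 8.61 to 236 ± 16.8 CPM (0.68). The median of the list changed with the reference, and was −0.56 against NPC P5 but 0.29, 0.20 and −0.02 against P15, P30 and P15 D2. On the export side 8 of 14 genes were higher and 0 lower by edgeR against D3 (median log2FC 0.63). DESeq2 also called 0 lower, and the 1 gene lower at an unadjusted p below 0.05 was *Fasn*, fatty acid synthase (−0.40), named after its values were seen. Against NPC P15 there were 7 higher and 3 lower DEGs of 14, where the shares over all genes were 29.8% and 27.4%. Against P15 D2 there were 6 higher and 6 lower DEGs of 14, where those shares were 38.9% and 36.9%. Medians of the export list were 1.02, 1.08, 0.36 and 0.14 against NPC P5, P15, P30 and P15 D2. *Abca1*, which loads cholesterol onto apolipoproteins, rose from 6.48 ± 1.26 to 60.2 ± 13.9 CPM (3.28), though its log2FC was 1.74, 1.28, 0.51 and −0.18 against NPC P5, P15, P30 and P15 D2. *Scd2* rose from 2669 ± 287 to 4199 ± 887 CPM (0.72), *Lpcat3* from 75.2 ± 5.91 to 151 ± 12.2 CPM (1.07) and *Abcg1* was at 0.790 ± 0.207 CPM in NPC P15 D3 and 0.708 ± 0.106 CPM in SPONT (log2FC −0.08, adjusted p = 0.79).

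Glycolytic genes were divided, with 8 higher (42.1%) and 9 lower (47.4%) DEGs of 19, beside 31.9% and 29.9% over all genes tested (median log2FC −0.30). *Ldha*, lactate dehydrogenase A, stood at 1175, 1241, 1400.2 and 1336 CPM in NPC P15 D3 and 317, 338, 302 and 311 CPM in SPONT (log2FC −1.96, SE 0.10, adjusted p = 3.1e-09), and *Hk2*, the hexokinase of proliferating cells, fell from 53.2 ± 11.1 to 13.9 ± 3.03 CPM (−1.87). *Eno1*, *Pgk1*, *Pgam1*, *Gapdh* and *Pkm* fell by 2.66-fold, 1.90-fold, 1.75-fold, 1.51-fold and 1.25-fold. *Aldoc*, given above, *Slc2a1*, a glucose transporter, and *Pdk1* rose, with log2FC of 2.70, 1.25 and 1.17.

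Of 32 tested matrix genes among 35, 11 were higher and 11 lower DEGs against D3, 34.4% each way and near the shares over all genes tested (median log2FC 0.04). Against NPC P15 there were 8 higher and 15 lower DEGs of 32 and against P15 D2 5 higher and 20 lower DEGs of 32, and the medians against NPC P5, P15, P30 and P15 D2 were −0.17, −0.40, −0.71 and −1.10. *Timp3*, an inhibitor of metalloproteinases, rose from 19.4 ± 1.48 to 545 ± 118.99 CPM (4.88), *Nid1* from 29.3 ± 2.89 to 129.9 ± 31.3 CPM (2.21), *Itga6* from 27.6 ± 9.30 to 97.8 ± 32.8 CPM (1.89), and the proteoglycan genes *Bcan* and *Ncan* from 551 ± 21.97 to 1369.5 ± 111 CPM (1.38) and from 539.8 ± 75.8 to 753 ± 129 CPM (0.54). *Ncan* had log2FC of −0.06, −0.17, −0.62 and −1.07 against NPC P5, P15, P30 and P15 D2. Beside *Tnc*, *Gpc4*, *Lamb1* and *Itgb1* fell by 3.99-fold, 3.89-fold and 2.29-fold. Of 27 tested genes linked to reactive astrocytes, among 29, 17 were higher and 4 lower DEGs (median log2FC 1.49). *Serpina3n* rose from 5.85 ± 0.653 to 101.1 ± 33.4 CPM (4.18), complement *C3* and *C4b* from 4.54 ± 0.973 to 53.7 ± 26.7 CPM (3.64) and from 1.08 ± 0.340 to 22.96 ± 6.03 CPM (4.49), *S1pr3* from 1.25 ± 0.192 to 52.04 ± 13.8 CPM (5.45), *Hspb1* from 2.96 ± 0.227 to 58.0 ± 17.2 CPM (4.36) and *Lcn2* from 1.81 ± 0.493 to 4.05 ± 1.90 CPM (1.24). SPONT replicates 1 and 2 both exceeded replicates 3 and 4 in 14 of the 17 higher genes. How often this held over all higher DEGs was not counted, so it cannot be called particular to these genes. *Spp1*, osteopontin, *Emp1*, *Cd44* and *Cp* fell, with log2FC of −4.50, −1.22, −0.69 and −0.50.

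Of 20 tested genes of interferon response and antigen presentation among 21, 2 were higher (10%) and 8 lower (40%) DEGs (median log2FC −0.42). The shares over all genes tested were 31.9% and 29.9%. *Bst2*, tetherin, fell from 50.0 ± 13.1 to 2.85 ± 1.02 CPM (−4.07) and *Tap1*, of peptide loading, from 28.1 ± 2.98 to 10.9 ± 1.36 CPM (−1.30). *Irf9* rose from 5.42 ± 0.908 to 13.6 ± 1.27 CPM (1.40) against D3 and had log2FC of −1.09, −0.80, −3.13 and −0.01 against NPC P5, P15, P30 and P15 D2. *B2m* was at 141 ± 5.33 CPM in NPC P15 D3 and 128.04 ± 8.31 CPM in SPONT (log2FC −0.07, adjusted p = 0.49) and *Isg15* at 1.70 ± 0.437 CPM in NPC P15 D3 and 1.01 ± 0.219 CPM in SPONT (log2FC −0.69, adjusted p = 0.032). The median of this list was −1.39 against NPC P5, −1.59 against P15, −4 against P30 and −0.14 against NPC P15 D2. With those references, in that order, 18, 14, 20 and 8 of 20 genes were lower DEGs and 0 higher. Over all genes tested 27.4% were lower DEGs against P15 and 36.9% against P15 D2.

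Markers of other cells that the cultures could hold were summed over each list. The summed level of 12 markers of microglia and blood was 1.87–2.90 CPM in NPC P15 D3 and 2.37–5.15 CPM in SPONT libraries, of 8 endothelial markers 2.54–3.81 and 1.01–1.65 CPM, and of 10 ESC markers 5.69–9.69 and 5.61–8.95 CPM. *Aif1* and *Cx3cr1* of microglia and *Pecam1*, *Cdh5* and *Cldn5* of endothelium stayed under 1 CPM in every library. The 11 fibroblast and mural markers summed to 7.26–9.65 and 15.5–18.7 CPM, with *Col1a1* at 2.64 ± 0.517 CPM in NPC P15 D3 and 4.65 ± 0.581 CPM in SPONT (log2FC 0.88, adjusted p = 0.0011) and *Pdgfrb* at 0.224 ± 0.0865 CPM in NPC P15 D3 and 2.54 ± 0.568 CPM in SPONT (log2FC 3.51, adjusted p = 5.0e-07). The 11 ependymal markers summed to 25.6–35.4 and 152–180 CPM. *Foxj1*, a factor of ciliated cells, rose from 30.1 ± 4.82 to 161 ± 13.8 CPM (2.49). Others of that list, such as *Rsph1* and *Ccdc39*, were at 1.25 ± 0.213 CPM and 0.323 ± 0.110 CPM in SPONT. The 10 Schwann cell and neural crest markers summed to 50.1–54.8 and 35.1–70.1 CPM, with *Foxd3* at 0 in all 8 libraries. The part of these cells in the results above was not tested.

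With the 4 other NPC groups as references the directions of the main lists were kept. DEGs numbered 8443 of 14971 genes tested (56.4%) against NPC P5, 8491 of 14852 (57.2%) against P15, 8189 of 14944 (54.8%) against P30 and 10293 of 13574 (75.8%) against P15 D2, whose libraries are single-read and shallower. The median log2FC of the G2 and mitosis list ran from −3.39 to −2.70 over the 5 references, of S phase genes from −2.72 to −2.33 and of the ERK feedback list from −2.02 to −1.29. Astrocyte genes ran from 2.49 to 3.76, OPC genes from 0.87 to 2.11 and committed oligodendrocyte genes from 3.01 to 4.07. Of the 243 named genes that were tested, 42 changed sign against at least 1 of these 4 groups, with a call in either fit. In all, 4958 of the 9203 DEGs also had every SPONT library outside the range of all 22 NPC libraries in the direction of the change.

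**Figure D5:**
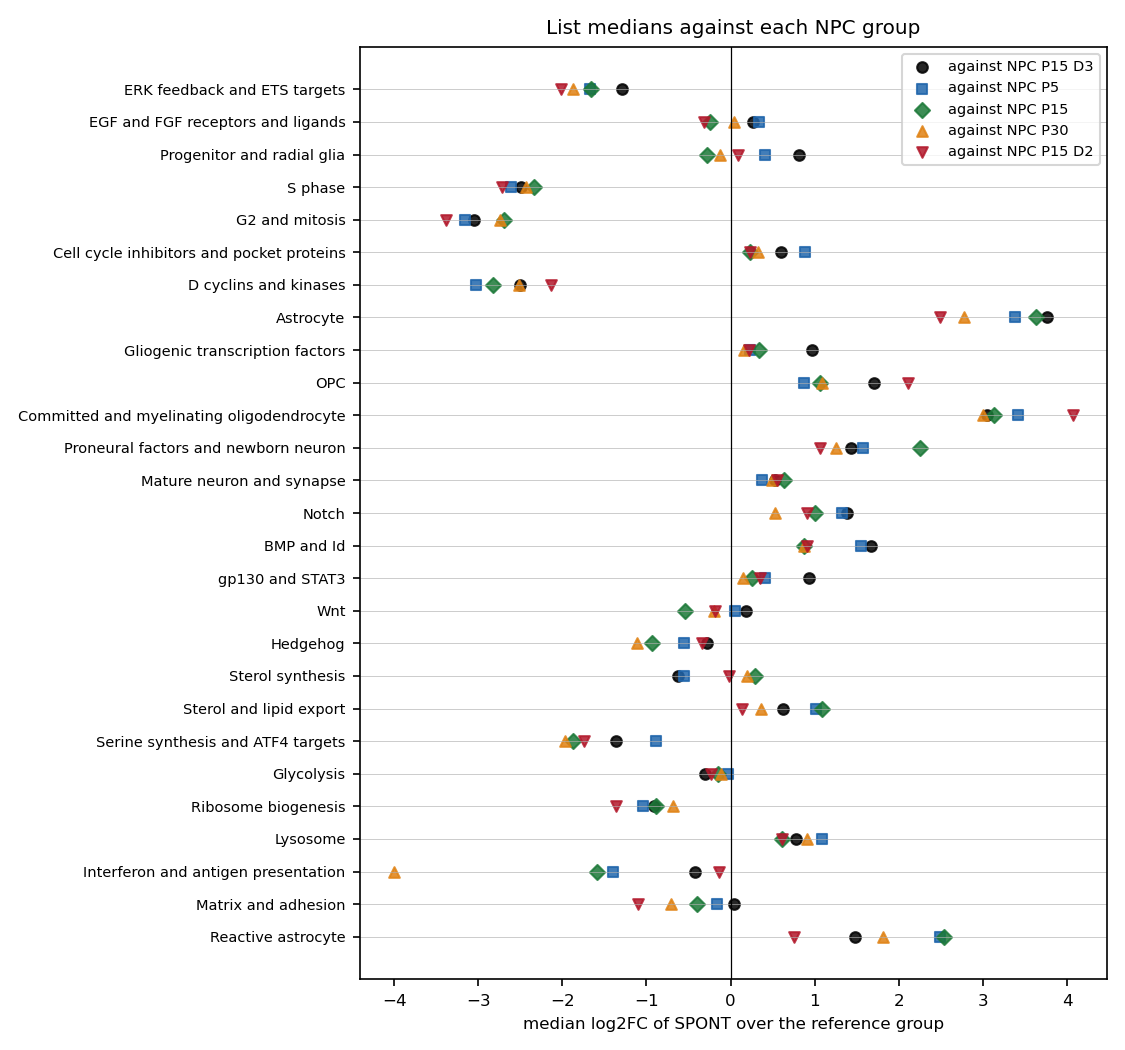
Median log2FC of the tested members of each list in SPONT against each of the 5 NPC groups, 1 symbol per reference group. The 5 values of the S phase, G2 and mitosis and ERK feedback lists all lie below 0 and those of the astrocyte and oligodendrocyte lists above it, while the progenitor, Wnt, sterol synthesis, EGF and FGF receptor and matrix lists have values on both sides.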

How the data were processed

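Libraries were made from polyadenylated RNA after pull-down of tagged ribosomes in lysates of cultured cells. The authors deposited 1 table of raw read counts per library, made with Trimmomatic, HISAT2 on mm10 and featureCounts. Both mates of a pair were counted, and NPC P15 D2 was single-read. Groups came from the sample titles. Genes were named by Entrez identifier from RefSeq, and the tables held 0 columns of other samples. Counts were tested with edgeR 4.0.16 in R 4.3.3 (TMM scaling, filterByExpr with a minimum count of 10, quasi-likelihood F test, Benjamini-Hochberg adjustment over all genes tested), and a gene was a DEG at an adjusted p below 0.01. The SE given with a log2FC is its size divided by the square root of the F statistic, not a separately estimated standard error. CPM used library sums, and a gene with at most 3 counts in every library of a group was given no fold. A test on simulated counts for this comparison called 122 of 194 changed genes and 4 of 14049 unchanged ones. Within it, 10 of 63 genes changed by 0.5 on the log2 scale, 49 of 65 by 1 and 63 of 66 by 2 were called. Its libraries were drawn independently, most genes were left unchanged and no change exceeded 2. In the data 61.9% of genes tested were DEGs and some libraries were closer than others, so these rates may not carry over. DESeq2 1.42.0, other scalings, filters, references and left-out libraries were alternatives. Promoters came from RefSeq windows of 250 bases before to 50 after a start. Named genes were selected members of each list, its largest changes of at least 10 CPM, and the 10 largest rises and falls overall. *Kif11*, *Prc1* and *Mcm6* were added for their promoters. Some genes that this rule names are not reported here. Members and lists were chosen with earlier results of these data known.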

Additional observations from a re-analysis of the deposited data

Results flagged for a closer look

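Levels of the genes named above, where the group mean was at least 1 CPM, were searched for a library far from the other 3 of its group. Library measures such as total counts were searched too. The measure was the gap to the nearest neighbour over the range of the group. Of 459 groups of 4 values, 40 had such a library, where chance gives about 1 in 20. Many genes share the same libraries, so these are not independent events. SPONT replicate 2 held 21 of them.

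Its level in CPM, with the range of the other 3 SPONT libraries in parentheses, was the highest for *Apoe* 16179 (11014–11346), *Asns* 122 (65.5–70.5), *Cenpa* 10.6 (7.10–7.68), *Ctsd* 869.6 (735–757), *Fdft1* 261 (226–228), *Gadd45b* 46.9 (34.2–35.6), *Gnl3* 51.7 (40.6–42.3), *Mthfd2* 46.5 (17.5–19.1), *Pcna* 133 (126–126.8), *Pla2g7* 1001 (746–763), *Snap25* 3.10 (0.737–0.830), *Trib3* 4.37 (0.636–0.693). It was the lowest for *Etv5* 26.2 (40.8–41.6), *Gabbr2* 163 (327–344.2), *Glul* 326 (468–489.8), *Gpt2* 498 (627–645), *Ncan* 562 (798–846), *Nid1* 83.4 (139–149), *Ptch1* 23.5 (84.8–92.0), *Syn2* 145 (179.3–185), *Timp3* 368 (591–627). *Trib3*, *Asns* and *Mthfd2* are targets of the stress factor ATF4.

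SPONT replicate 1 was the highest for *Aldh1l2* 24.02 (16.3–16.7), *Aqp4* 99.3 (54.0–55.3), *Ccna2* 30.2 (20.1–21.5), *Ccnb1* 16.8 (8.48–9.37), *Id2* 269 (231–233), *Prc1* 30.8 (22.4–23.5), *Tnr* 85.6 (41.02–42.9), *Vcan* 293 (188.04–204), and the lowest for *Glb1* 63.8 (68.0–68.4). In NPC P15 D3, replicate 1 was the lowest for *Mcm5* 315 (324–324), replicate 3 the highest for *Camk1g* 45.2 (41.4–41.9), *Serpina3n* 6.83 (5.49–5.57) and the lowest for *Ctsf* 21.6 (24.1–24.4), *Vcan* 170.9 (202–204), and replicate 4 the highest for *Chrdl1* 16.1 (11.3–11.7), *Ect2* 107 (101.9–103), *Fgfbp3* 5.74 (5.14–5.19), *Glul* 446 (396–404) and the lowest for *Dusp4* 179.2 (189–191). The reason for these gaps was not tested.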

How the results depend on the processing

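The count of 9203 DEGs stayed within 1.5 times of its value under every alternative fit, from 6672 with the closest libraries counted as 1 sample to 11709 against the mean of the 5 NPC groups, and moved only with the threshold. With a log2FC of at least 1 in size also required, 5427 DEGs were left, 3065 higher and 2362 lower. Leaving out 1 library at a time gave 8428–9721. DESeq2 called 9765 genes. No label states that replicate numbers mark shared cultures, and the same-numbered libraries did not deviate together (r of 0.21, −0.07, −0.12 and 0.16). With the replicate number as a block there were 8977 DEGs against NPC P15 D3, and 7726, 7998, 7759 and 9401 against NPC P5, P15, P30 and P15 D2, and 2 of the 4 numbers correlated best with their own. Searching the bases after the start as well raised the share of G2 and mitosis windows with a CHR element from 38.7% to 77.4%, and with both a CHR element and a CCAAT box from 38.7% to 74.2%. The choice of NPC group changed single genes most. A change of sign, with a call in at least 1 of the 2 fits, occurred with another reference alone, and the cause was not tested. The log2FC values that changed sign are given here. Against NPC P15 D2 these were *Abca1* −0.18, *Boc* −0.0068, *Ccdc39* −1.30, *Cdk4* 0.40, *Cdkn2c* 0.25, *Col1a1* −1.06, *Dbx2* −0.18, *Egfr* −0.96, *Gapdh* 0.17, *Hes1* −1.28, *Insm1* 1.07, *Irf9* −0.0075, *Ncan* −1.07, *Nfib* −0.057, *Nid1* −0.054, *Notch1* −0.81, *Pdgfrb* −0.44, *Pdk1* −0.48, *Pkm* 0.081, *Scd2* −0.42, *Socs3* −0.52, *Sqle* 0.034, *Stat3* −0.29, *Stmn1* 0.41, *Syt1* 0.74, *Tm7sf2* 0.46, *Vcan* −1.16. Against NPC P15 these were *Boc* −0.43, *Ccdc39* −0.84, *Cdk4* 0.37, *Cdkn2c* 0.26, *Cspg4* −0.0034, *Ctsz* 0.11, *Dbx2* −0.42, *Egfr* −0.87, *Emp1* 0.52, *Gabrg1* 0.78, *Hes1* −1.33, *Id3* 0.61, *Idi1* 0.18, *Irf9* −0.80, *Ncan* −0.17, *Nfia* −0.078, *Notch1* −0.80, *Olig1* −1.06, *Olig2* −0.75, *Sqle* 0.31, *Stmn1* 0.044, *Tm7sf2* 1.12, *Vcan* −0.73. Against NPC P30 these were *Boc* −0.21, *Cdk4* 0.13, *Cdkn1a* 0.43, *Cdkn2c* 0.056, *Egfr* −0.69, *Glul* −0.47, *Hes1* −0.81, *Idi1* 0.022, *Insm1* 0.30, *Irf9* −3.13, *Ncan* −0.62, *Notch1* −0.38, *Olig1* −0.25, *Pdgfra* −0.50, *Pkm* 0.16, *Sqle* 0.21, *Stmn1* 0.063, *Syn1* −0.012, *Syt1* 1.44, *Tubb3* −0.22, *Vcan* −0.80. Against NPC P5 these were *Ccnd3* −0.0033, *Col1a1* −0.28, *Emp1* 0.78, *Gabrg1* 0.035, *Irf9* −1.09, *Ncan* −0.064, *Nfia* −0.29, *Notch1* −0.064, *Olig1* −0.32, *Olig2* −0.66. Against the mean of the 5 NPC groups these were *Col1a1* −0.070, *Egfr* −0.43, *Hes1* −0.81, *Irf9* −0.75, *Ncan* −0.30, *Notch1* −0.21, *Olig1* −0.023, *Olig2* −0.28, *Vcan* −0.52.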
